A study of Homo sapiens with 12 samples.

Results

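Unselected, parental cells of the human triple-negative breast cancer line MDA-MB-231 were sequenced in 2 batches, and the 3 libraries of batch 2 are compared here with the 3 libraries of batch 1, across all genes. These are 6 of the 12 RNA-seq libraries of the series. The other 6 libraries, 3 in each batch, come from the cells called fast, a population of the same line captured for its trajectory, per the labels. They are used to see whether a gene that differed between the parental batches also differed between the fast batches. They also enter the same fit. The filter, the scaling and the estimate of spread behind the parental p-values therefore draw on all 12 libraries. No drug, time point or genetic change is named for any group, and all 4 groups are the same line grown in culture. The submitters describe the batches as 2 biological replicates and the libraries of a batch as technical replicates. Whether the batches also differ in RNA extraction, library preparation or sequencing run is not stated, and these cannot be told apart from the biological replicate. By that description the number of biological units is 1 against 1. The p-values measure the spread between libraries of a batch, which may be technical, and say how well these preparations are separated, not how cultures of the line vary in general.

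MDA-MB-231 is a mesenchymal-like line that lacks the estrogen receptor and the epithelial cadherin. Its cells carry MHC class II molecules, which load peptides in endosomes under the control of the co-activator CIITA and with the help of the invariant chain CD74 and the exchange factor HLA-DM, although class II is best known from professional antigen-presenting cells. They also deposit a matrix of fibronectin, collagens and laminins that integrins bind. Ribosome production, respiration and the early response to growth factors are further programmes that cultured cells are known to adjust.

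VIM, CD44, CDH1 and ESR1 matched the label in all 6 parental libraries. The mesenchymal filament gene VIM had 283384 to 369999 counts per library and the hyaluronan receptor gene CD44 51177 to 63244. The epithelial cadherin gene CDH1 had at most 2 counts and the estrogen receptor gene ESR1 6 to 18. The progesterone receptor gene PGR had 18 to 42 counts. ERBB2, the HER2 receptor gene, had 3464 to 4424, so its RNA was present, and the protein was not measured here. Total counts ran from 55881645 to 72001883 per parental library, and mitochondrially encoded genes took 2.08% to 2.91% of them. Of 11 leukocyte markers 3, CD3D and TYROBP among them, had 0 counts in every parental library. The same held for 3 of 10 fibroblast markers (COL3A1, DCN and LUM). The summed level of the 10 fibroblast markers was 14.6 to 16.7 CPM in batch 1 and 14.2 to 15.2 CPM in batch 2, with overlap. The summed level of the 11 leukocyte markers was 156.9 to 162.5 CPM in batch 1 and 148.4 to 151.4 CPM in batch 2, nearly all of it from the lysosomal genes CD68 (means of 93.7 and 90.7 CPM) and LAPTM5 (63 and 57.2 CPM). The sums of other marker lists also separated by batch, in CPM from 907 to 968 and from 779 to 831 for basal epithelium, from 757 to 805 and from 820.4 to 873 for luminal epithelium, and from 113 to 115 and from 121 to 129 for endothelium in batch 1 and batch 2. So did those of the mesenchymal markers of the line, at 7757 to 7827 CPM in batch 1 and 7504 to 7634 CPM in batch 2. The part of these marker sums in the results was not tested. CPM is the count scaled to a common library size with edgeR's TMM factors. The parental libraries separated by batch on the first principal component, which held 71.8% of their variance. All library pairs within a batch differed by more than counting noise, so none is a second deposit of another.

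Of 22668 genes tested, 3454 (15.2%) were higher and 3347 (14.8%) lower in parental batch 2, 30.0% together, by edgeR's quasi-likelihood test at a Benjamini-Hochberg adjusted p under 0.05. Many of these differences were small. Of all calls, 49.4% were under 1.2-fold, and the median absolute log2 fold change over all genes was 0.17. At least 2-fold, 721 genes (3.18%) were higher and 153 (0.675%) lower. The 3 libraries of batch 2 lay all above those of batch 1 for 4543 genes (20.0%) and all below for 4551 (20.1%). Of the called genes 50.8% were higher, and this split moved with the scaling and with a single library: 43.6% were higher with DESeq2's size factors, 38.1% without a filter on low counts and 39.5% without parental batch 2 replicate 3. In the fast cells, 2594 genes (11.4%) were higher and 3561 (15.7%) lower in batch 2. That contrast uses other libraries than the parental one, but both come from the same fit.

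**Figure D1:**
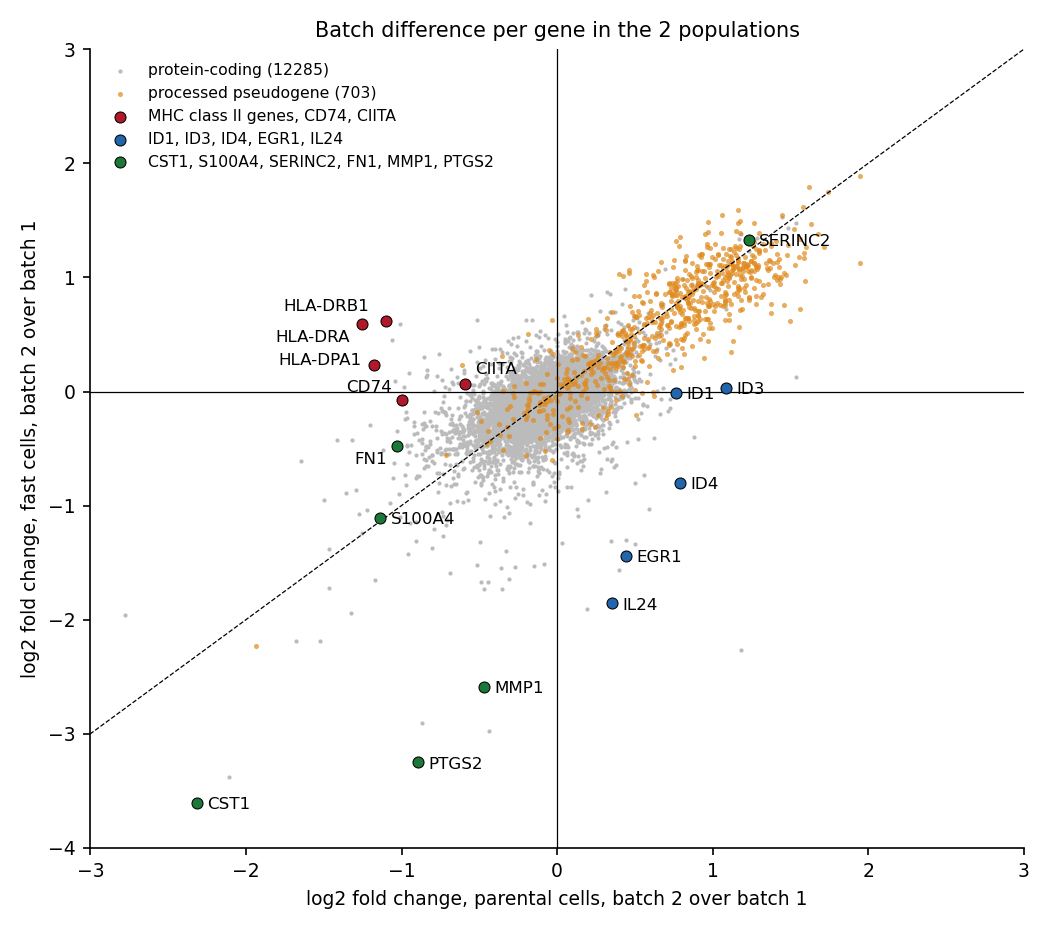
Log2 fold change of batch 2 over batch 1 in parental cells (x axis) and fast cells (y axis), 1 point a gene, for protein-coding genes (grey) and processed pseudogenes (orange) at a mean of at least 1 CPM in parental and 0.5 CPM in fast libraries. The dashed line marks equal change. Pseudogenes lie along it at the upper right, most MHC class II genes lie to the left and above 0, and ID1 and ID3 lie to the right near 0 in fast cells.

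Across the 12461 protein-coding genes at 1 CPM or more, the parental and the fast log2 fold changes had a Spearman correlation of 0.56, given as a description, since genes are not independent and the batches may share handling. Among protein-coding genes, 40.3% of those higher in parental batch 2 were also called higher in fast batch 2, and 55.4% of those lower were also called lower. The difference of the batch effect between the populations was itself called for 1223 genes (5.4%). Of the 12461 protein-coding genes at 1 CPM or more, 1963 (15.8%) were higher and 2869 (23.0%) lower in parental batch 2, and this is the nearer background for gene lists made up mostly of such genes.

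The antigen presentation genes fell together. Of 25 tested genes of MHC class I and II presentation, 22 were lower and 0 higher in parental batch 2, with a median log2 fold change of -0.46 against 0.00 over all genes tested. After a trend with transcript length and GC content was removed, 20 were lower and 0 higher. The class II genes led it. HLA-DRA (ENSG00000204287), the invariant alpha chain of HLA-DR, stood at 77.2, 76.9 and 80.5 CPM in batch 1 and 33.4, 33.9 and 31.1 CPM in batch 2, so that every batch 2 library was under every batch 1 library (log2 fold change -1.25 ± 0.05 SE, n = 3 libraries each, edgeR adjusted p = 3.06e-22). Its partner HLA-DRB1 stood at 45, 42.8 and 46 CPM in batch 1 and 21.5, 21.2 and 19.6 CPM in batch 2 (-1.10 on the log2 scale). HLA-DPA1 and HLA-DPB1, the chains of HLA-DP, fell from 26.3 to 11.6 CPM and from 12.3 to 5.95 CPM. HLA-DRB5 and the pseudogene HLA-DRB6 were also lower, but reads of the DRB copies are so alike that their own shares are uncertain. HLA-DQA1 was close to the detection floor, with 15, 41 and 23 counts in batch 1 and 2, 2 and 1 in batch 2.

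The helpers of class II loading moved the same way. CD74, the invariant chain that guides class II molecules to endosomes, stood at 378, 388 and 389 CPM in batch 1 and 192, 196 and 191 CPM in batch 2 (log2 fold change -0.997 ± 0.03 SE, edgeR adjusted p = 1.65e-27). CIITA, the co-activator that switches the class II genes on, stood at 21.4, 22.1 and 20.9 CPM in batch 1 and 14.4, 14.3 and 13.9 CPM in batch 2 (log2 fold change -0.59 ± 0.06 SE). HLA-DMA and HLA-DMB, the chains of the peptide exchange factor, fell from 11.9 to 7.49 CPM and from 5.94 to 3.51 CPM. The libraries of the batches did not overlap for any of these genes.

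In the fast cells HLA-DMA was the class II gene called lower, by 0.27 on the log2 scale, while HLA-DRA, HLA-DRB1, HLA-DRB5 and HLA-DMB were higher and HLA-DPA1, HLA-DPB1, CD74 and CIITA did not pass the test. HLA-DRA rose there from 13.4 to 20.3 CPM, and the difference of the batch effect, parental minus fast, was -1.85 ± 0.08 SE on the log2 scale (edgeR adjusted p = 1.29e-21). HLA-DRB1 went from 6.27 to 9.59 CPM in fast cells (difference -1.72 ± 0.09 SE). CD74 stood at 309, 307 and 308 CPM in batch 1 and 297, 289 and 291 CPM in batch 2 in fast cells (difference -0.92 ± 0.04 SE, edgeR adjusted p = 8.30e-21). CIITA stood at 17.2, 15.3 and 17.4 CPM in batch 1 and 17.2, 17.2 and 17.7 CPM in batch 2 there (difference -0.66 ± 0.09 SE, edgeR adjusted p = 9.80e-07). For HLA-DRA and HLA-DRB1 the parental libraries were above the fast ones in both batches, with a narrower gap in batch 2. For CD74 and CIITA they were above the fast libraries in batch 1 and below them in batch 2.

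The class I genes fell less, and in both populations. HLA-B, a class I heavy chain, stood at 296, 287 and 306 CPM in batch 1 and 190.2, 193 and 184 CPM in batch 2 (log2 fold change -0.65 ± 0.03 SE), and HLA-C fell from 205 to 146 CPM. For B2M, the light chain of all class I molecules, the means were 392 CPM in batch 1 and 331 CPM in batch 2 (log2 fold change -0.24 ± 0.03 SE). The immunoproteasome subunit PSMB9, the peptide pump subunit TAP1 and the class I co-activator NLRC5 fell by 0.44, 0.20 and 0.22 on the log2 scale, and NLRC5 lost its call with the length and GC trend removed and without parental batch 1 replicate 2 or batch 2 replicate 2. In fast cells HLA-B and HLA-C fell by 0.54 and 0.35, and the difference of the batch effect was not called for these heavy chains (edgeR adjusted p = 0.198 and 0.076). HLA-G, TAP2 and TAPBP were the members that did not pass the test.

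Promoters of 3 of these genes are printed because the class II genes moved together and share known control elements. RefSeq's table of 300 bases around each start (250 before and 50 after, GRCh38.p14) held 8 of 9 class II genes, CD74 included. A strict form of the X1 box, searched on both strands, was present in 2 of the 8 against 0.0732% of 27305 promoters. Those 2, HLA-DMA and HLA-DMB, are among the printed. HLA-DRB1, HLA-DRB5, HLA-DPA1 and HLA-DPB1, which fell further, had no match to this strict form in their windows and are not printed. The HLA-DRB1 and HLA-DRB5 windows hold a near-match that departs from the strict form only in its first letter. The HLA-DPA1 window lies downstream of the HLA-DPB1 start, on the other strand, and whether it is the promoter in use was not tested. The strict search therefore does not show that these genes lack the element. The inverted CCAAT box ATTGG, the core of the Y box, was in 7 of the 8 (87.5%) against 35.7%. Capitals mark these matches in the first 3 sequences, with overlapping matches merged, and a window without a match says only that these letters are not in it. HLA-DMA lies at chr6:32953048-32953347, minus strand, HLA-DMB at chr6:32940979-32941278, minus strand and CD74 at chr5:150412861-150413160, minus strand. The last 2 sequences belong to the interferon-stimulated genes IFIT1 (chr10:89392373-89392672, plus strand) and ISG15 (chr1:1013247-1013546, plus strand), with the interferon response core in capitals, which is GAAA, any 2 bases and GAAA again on either strand.
HLA-DMA: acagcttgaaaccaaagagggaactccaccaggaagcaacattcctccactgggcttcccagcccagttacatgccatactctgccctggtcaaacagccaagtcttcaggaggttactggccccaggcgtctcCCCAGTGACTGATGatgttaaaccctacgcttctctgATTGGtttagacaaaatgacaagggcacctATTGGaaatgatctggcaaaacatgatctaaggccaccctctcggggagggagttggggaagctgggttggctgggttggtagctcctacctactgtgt
HLA-DMB: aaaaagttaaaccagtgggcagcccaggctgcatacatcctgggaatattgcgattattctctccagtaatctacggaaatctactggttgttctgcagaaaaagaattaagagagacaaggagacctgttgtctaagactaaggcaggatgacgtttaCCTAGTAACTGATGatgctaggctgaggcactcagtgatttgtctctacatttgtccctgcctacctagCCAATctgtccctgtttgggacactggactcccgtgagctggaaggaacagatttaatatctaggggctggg
CD74: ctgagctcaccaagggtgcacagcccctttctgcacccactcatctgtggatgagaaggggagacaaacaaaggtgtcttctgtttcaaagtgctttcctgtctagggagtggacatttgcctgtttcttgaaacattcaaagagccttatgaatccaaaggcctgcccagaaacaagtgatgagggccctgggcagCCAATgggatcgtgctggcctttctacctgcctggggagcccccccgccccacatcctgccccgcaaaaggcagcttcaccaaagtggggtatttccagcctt
IFIT1: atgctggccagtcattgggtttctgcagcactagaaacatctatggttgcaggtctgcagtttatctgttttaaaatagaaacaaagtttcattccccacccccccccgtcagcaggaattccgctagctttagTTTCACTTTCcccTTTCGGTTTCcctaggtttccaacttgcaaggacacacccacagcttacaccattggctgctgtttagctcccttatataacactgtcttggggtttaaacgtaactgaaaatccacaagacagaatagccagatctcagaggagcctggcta
ISG15: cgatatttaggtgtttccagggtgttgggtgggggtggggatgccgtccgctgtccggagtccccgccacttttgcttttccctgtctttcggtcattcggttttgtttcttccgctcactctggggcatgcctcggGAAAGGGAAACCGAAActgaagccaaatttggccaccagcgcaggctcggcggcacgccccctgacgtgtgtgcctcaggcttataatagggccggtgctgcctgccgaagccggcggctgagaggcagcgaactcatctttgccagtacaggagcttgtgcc

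Interferon-stimulated genes, the antiviral genes that interferon switches on, were also lower. Of 44 tested, 30 were lower and 0 higher, with a median log2 fold change of -0.26. That interferon response core was in 22 of the 35 promoters of this list that the table holds (62.9%) against 3.65% of all promoters. IFIT1, an RNA-binding antiviral protein, stood at 12.7, 12.3 and 13.6 CPM in batch 1 and 7.27, 8.84 and 8.65 CPM in batch 2 (log2 fold change -0.64 ± 0.07 SE, edgeR adjusted p = 3.15e-09). TRIM22, a ubiquitin ligase, fell from 3.42 to 1.39 CPM, and the guanylate-binding GTPase gene GBP2 from 4.05 to 1.8 CPM. The antiviral GTPase genes MX1 and MX2 fell from 7.16 to 5.14 CPM and 1.37 to 0.702 CPM. The transcription factor gene IRF1 fell less, by 0.22 on the log2 scale. ISG15, a ubiquitin-like modifier whose promoter carries the same core, stood at 26.1, 28.9 and 28.3 CPM in batch 1 and 28.5, 28.7 and 25.4 CPM in batch 2, with overlapping libraries (edgeR adjusted p = 0.892). Fast cells had 31 of the 44 lower and 0 higher, and the difference of the batch effect was called for 9 of its members.

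**Figure D2:**
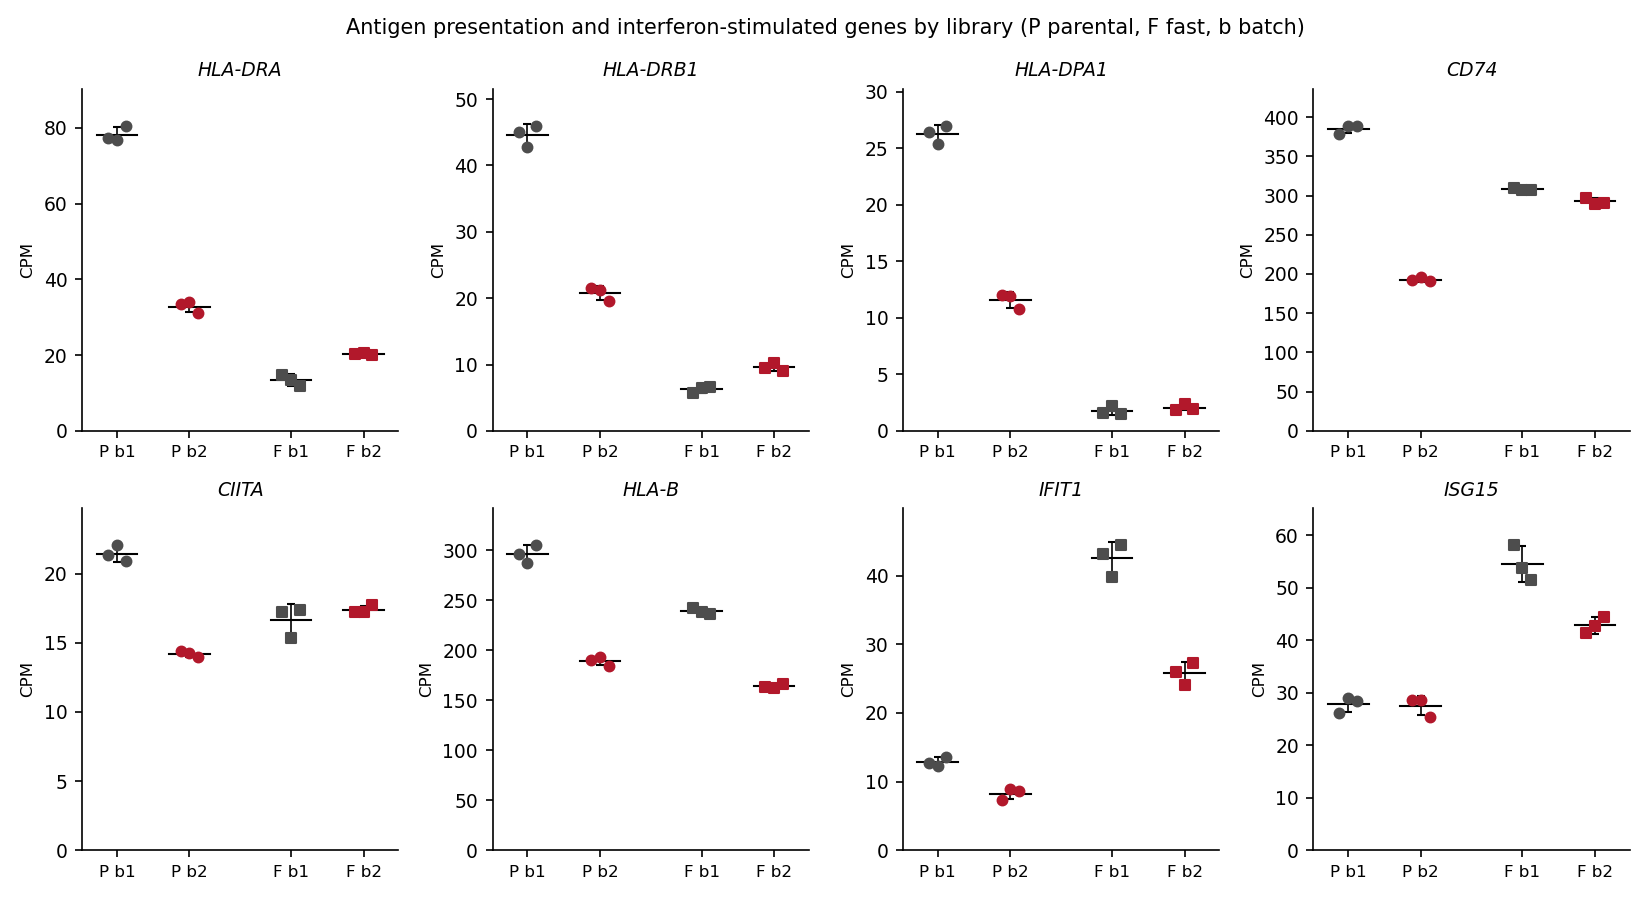
Level in CPM (y axis, from 0) of antigen presentation and interferon-stimulated genes in each library, 1 point a library, with the mean and SD of 3 libraries, for parental (P, circles) and fast (F, squares) cells in batch 1 (b1, grey) and batch 2 (b2, red). HLA-DRA, HLA-DRB1, HLA-DPA1, CD74 and CIITA fall in the parental cells and were not called lower in the fast cells, HLA-B and IFIT1 fall in both, and ISG15 overlaps in the parental cells.

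Genes of the extracellular matrix fell as well. Of 44 tested matrix genes, 25 were lower and 2 higher, with a median log2 fold change of -0.19. With the trend on length and GC removed these counts were 22 lower and 7 higher. The list's transcripts are long, with a median of 6520.5 bases against 3687 for protein-coding genes at 1 CPM or more. FN1, fibronectin, stood at 295, 285 and 286 CPM in batch 1 and 143, 138 and 144 CPM in batch 2 (log2 fold change -1.03 ± 0.03 SE, edgeR adjusted p = 1.44e-26). COL6A1, COL6A2 and COL6A3, which together form collagen VI, fell from 166 to 99.4 CPM, 114 to 72.2 CPM and 118 to 77.7 CPM. The basement membrane genes LAMA3 and LAMA4, laminin alpha chains, fell from 35.3 to 21.4 CPM and 12 to 6.71 CPM, and COL18A1 fell by 0.72 and TNC by 0.57 on the log2 scale. The genes THBS1, a matricellular thrombospondin, and TGM2, a cross-linking enzyme, were the 2 that rose, and TGM2 lost its call with DESeq2's size factors, without a filter on low counts, and without parental batch 1 replicate 2, batch 2 replicate 2 or batch 2 replicate 3. In fast cells 5 matrix genes were higher and 19 lower.

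The batch effects of FN1 and COL6A3 were more negative in parental than in fast cells. FN1 stood at 117, 123 and 123 CPM in batch 1 and 89.3, 87.1 and 84.5 CPM in batch 2 in fast cells, with a difference of the batch effect of -0.55 ± 0.05 SE (edgeR adjusted p = 8.80e-12). COL6A3 rose slightly there, from 33.8 to 37.9 CPM (difference -0.76 ± 0.06 SE). TNC was the reverse case, with a deeper fall in fast cells (-0.95 against -0.57, edgeR adjusted p = 2.14e-06). S100A4, a calcium-binding protein known from motile tumour cells, fell in both. It stood at 45.1, 47.7 and 47.8 CPM in batch 1 and 22.2, 22.4 and 19.4 CPM in batch 2 in parental cells (log2 fold change -1.14 ± 0.05 SE) and fell from 46 to 21.4 CPM in fast cells, and the difference was not called (edgeR adjusted p = 0.888).

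The lists of receptors and proteases that meet the matrix also had more genes lower than higher. Among protein-coding genes at 1 CPM or more, 23.0% were lower and 15.8% higher. Of 33 integrin and focal adhesion genes, 17 were lower (51.5%) and 5 higher (15.2%). With the length and GC trend removed, 14 were lower and 8 higher, and the median log2 fold change moved from -0.16 to -0.09. The falls were led by ITGB8, which activates latent TGF-beta (5.42 to 2.24 CPM), and the collagen receptor alpha chains ITGA10 (11.4 to 6.1 CPM) and ITGA1 (24.8 to 14.3 CPM). Of 37 metalloproteinase and protease inhibitor genes, 16 were lower (43.2%) and 4 higher (10.8%), and 15 and 4 with the trend removed. The aggrecanase-type protease gene ADAMTS15 stood at 27.1, 26.3 and 25.9 CPM in batch 1 and 13.5, 12.9 and 15.4 CPM in batch 2 (log2 fold change -0.92 ± 0.07 SE). The interstitial collagenase MMP1 fell from 116 to 84 CPM in parental cells and from 41.7 to 6.96 CPM in fast cells, where the fall was deeper (difference 2.12 ± 0.07 SE, edgeR adjusted p = 1.18e-25). WTAPP1, a transcribed pseudogene beside MMP1 on chromosome 11, followed it (-0.56 in parental and -2.73 in fast cells), and without stated strand use their shared reads cannot be told apart.

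The largest falls at 5 CPM or more, genes with clone names left out, were in the secreted cysteine protease inhibitors CST1 and CST4. CST1, cystatin SN, stood at 15.4, 15.2 and 15.1 CPM in batch 1 and 3.14, 3.55 and 2.48 CPM in batch 2 (log2 fold change -2.31 ± 0.10 SE, edgeR adjusted p = 7.82e-22), and CST4, cystatin S, at 7.86, 8.08 and 8.58 CPM in batch 1 and 1.55, 1.87 and 2.24 CPM in batch 2. Both fell further in fast cells, CST1 from 13.5 to 1.1 CPM (difference 1.29 ± 0.16 SE) and CST4 from 2.31 to 0.221 CPM. These copies are near-identical, so reads could pass between them. The remaining genes among the 12 largest falls were CD96, an immunoglobulin-family receptor better known from T and NK cells (10.5 to 5.04 CPM), EHF, an epithelial ETS factor (8.95 to 4.33 CPM), and GALNT5, an enzyme that starts mucin-type O-glycans (13.7 to 6.75 CPM). EHF was at 0.26 CPM or less in every fast library.

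**Figure D3:**
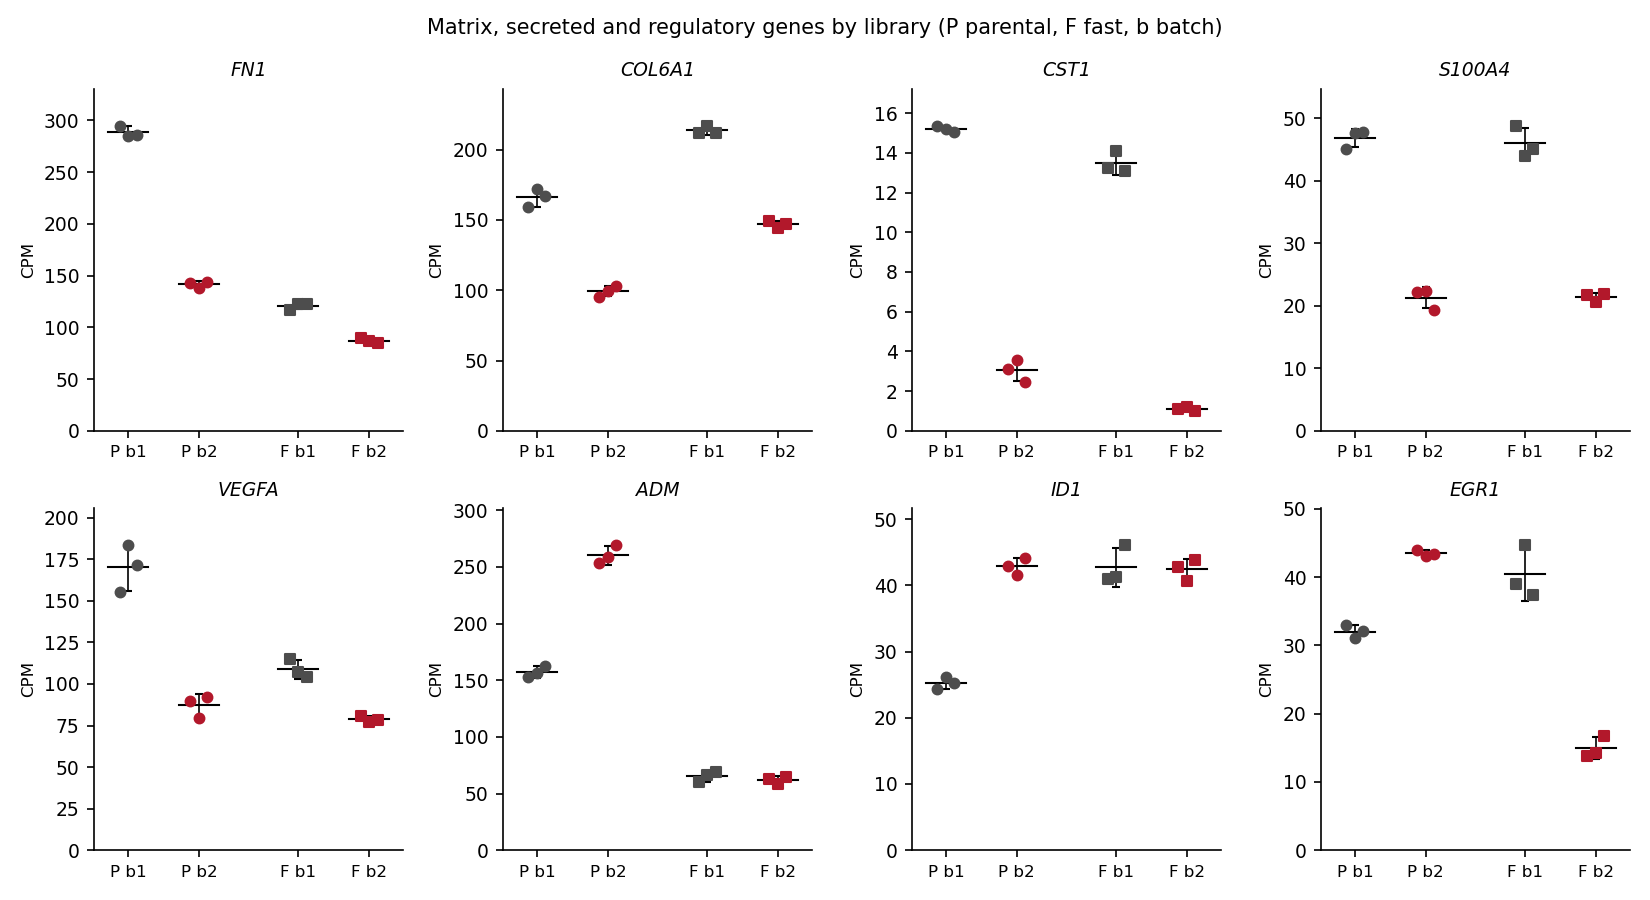
Level in CPM (y axis, from 0) of matrix, secreted and regulatory genes in each library, 1 point a library, with the mean and SD of 3 libraries, for parental (P, circles) and fast (F, squares) cells in batch 1 (b1, grey) and batch 2 (b2, red). S100A4 and CST1 fall in both populations, ADM and ID1 rise in parental cells and did not pass the test in fast cells, and EGR1 rises in parental and falls in fast cells.

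Among genes that respond to growth factors within the hour, several rose in parental cells and fell in fast cells. Of 27 immediate early and AP-1 genes, 12 were higher and 0 lower in parental batch 2 (median log2 fold change 0.14), while 2 were higher and 19 lower in fast batch 2 (median -0.43), and the difference was called for 17. EGR1, an early zinc finger factor, stood at 33, 31 and 32.1 CPM in batch 1 and 44, 43 and 43.4 CPM in batch 2 (log2 fold change 0.44 ± 0.06 SE) in parental cells and at 39, 44.7 and 37.4 CPM in batch 1 and 13.8, 14.3 and 16.7 CPM in batch 2 in fast cells (difference 1.88 ± 0.08 SE, edgeR adjusted p = 3.75e-20). ATF3, a stress-responsive factor, rose from 3.88 to 5.84 CPM in parental and fell from 9.38 to 4.6 CPM in fast cells. FOS and FOSB, partners of JUN in AP-1, rose by 0.40 and 0.50 on the log2 scale in parental and fell by 1.56 and 1.34 in fast cells. The parental call of FOS was lost without parental batch 1 replicate 2 (edgeR adjusted p = 0.126) and without parental batch 2 replicate 2 (edgeR adjusted p = 0.0882). CYR61, a matricellular target of SRF and YAP, rose in both, from 708 to 962 CPM and from 519 to 645 CPM in fast cells. Among 16 genes of ERK feedback, 8 were lower and 2 higher in parental batch 2, with ETV1 (48.8 to 30.5 CPM) and SPRY1 (15.9 to 11.2 CPM) at the front.

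The inhibitor of differentiation genes, BMP-responsive partners that block basic helix-loop-helix factors, rose in parental cells. ID1 stood at 24.4, 26.2 and 25.2 CPM in batch 1 and 42.9, 41.6 and 44.1 CPM in batch 2 (log2 fold change 0.76 ± 0.05 SE, edgeR adjusted p = 9.06e-16), ID3 at 10.8, 10.3 and 10.6 CPM in batch 1 and 23, 23.2 and 21.2 CPM in batch 2 (log2 fold change 1.09 ± 0.07 SE), and ID4 at 9.4, 7.81 and 8.5 CPM in batch 1 and 14, 15.8 and 14.5 CPM in batch 2 (log2 fold change 0.79 ± 0.09 SE). ID2 was low, with 12, 28 and 12 counts in batch 1 and 47, 35 and 38 in batch 2, and its call was lost without parental batch 1 replicate 1, batch 1 replicate 3 or batch 2 replicate 1 (edgeR adjusted p = 0.0793, 0.101 and 0.116). In fast cells ID1 and ID3 did not pass the test (log2 fold changes -0.01 and 0.03) and ID4 fell by 0.80. The difference of the batch effect was called for all 4 (edgeR adjusted p = 5.83e-11, 0.0386, 1.05e-10 and 5.70e-10 for ID1 to ID4). PMEPA1, a feedback target of TGF-beta, went the other way in parental cells, from 43.1 to 24.2 CPM. Over the 25 TGF-beta response genes, 7 were higher and 9 lower in parental and 2 higher and 12 lower in fast cells, and the difference was called for 15.

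The counts of the inflammatory list differed between the populations. Of 29 tested NF-kB targets, interleukins and chemokines, 10 were higher and 5 lower in parental batch 2, against 3 higher and 18 lower in fast cells. The parental shares were 34.5% higher and 17.2% lower. Among protein-coding genes at 1 CPM or more they were 15.8% and 23.0%, so the list's lower share was not above that background. Without parental batch 1 replicate 1 or without batch 2 replicate 3 the parental count lower was 8. PTGS2, the inducible prostaglandin synthase, fell from 12.2 to 6.57 CPM in parental and from 31.1 to 3.27 CPM in fast cells (difference 2.36 ± 0.13 SE). The cytokine gene IL24 rose from 9.46 to 12.1 CPM in parental and fell from 13.2 to 3.66 CPM in fast cells (difference 2.21 ± 0.13 SE, edgeR adjusted p = 1.62e-16).

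The hypoxia list had more genes lower than higher. Of 27 hypoxia response genes, 14 were lower (51.9%) and 3 higher (11.1%), and in fast cells 13 were lower and 2 higher. Among protein-coding genes at 1 CPM or more, 23.0% were lower and 15.8% higher in parental batch 2. With the length and GC trend removed, 11 hypoxia genes were lower and 2 higher in parental cells. VEGFA, the vascular growth factor, stood at 156, 184 and 171 CPM in batch 1 and 90.05, 79.5 and 92 CPM in batch 2 (log2 fold change -0.97 ± 0.06 SE, edgeR adjusted p = 1.51e-09), and NDRG1 fell from 94.1 to 57.5 CPM. ADM, the vasodilator peptide adrenomedullin that hypoxia also raises, went the other way at 153, 157 and 163 CPM in batch 1 and 253, 259 and 269 CPM in batch 2 (log2 fold change 0.73 ± 0.04 SE), and in fast cells it stood at 60.02, 66.2 and 69 CPM in batch 1 and 63, 58.5 and 64.5 CPM in batch 2 (difference 0.79 ± 0.06 SE, edgeR adjusted p = 2.05e-13). Of 21 glycolysis and glucose transport genes, 6 were higher (28.6%) and 5 lower (23.8%), so the lower share was near that background.

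The lipid lists differed in their counts. Of 19 fatty acid and triglyceride genes, 9 were lower and 2 higher, led by SREBF1, the master regulator of fatty acid synthesis, at 58.4, 62.9 and 59.3 CPM in batch 1 and 35.1, 36.4 and 37.9 CPM in batch 2 (log2 fold change -0.72 ± 0.04 SE), with its targets ACACA (98.4 to 75.9 CPM) and SCD (257 to 204 CPM) also lower. Of 25 cholesterol synthesis and uptake genes, 9 were higher and 2 lower, and 5 were higher without parental batch 2 replicate 2. The steps were small: DHCR7, the last enzyme of the pathway, rose from 59.6 to 70.2 CPM and SQLE from 23.7 to 27.4 CPM. In fast cells the cholesterol list had 2 higher and 9 lower. SLC7A5 and SLC3A2, the light and heavy chains of a transporter for large amino acids, rose from 726 to 946 CPM and 304 to 386 CPM. Of 24 NRF2 target and iron genes, 10 were lower and 5 higher in parental and 22 lower and 1 higher in fast cells. AKR1C1, an aldo-keto reductase of that list with near-identical copies, fell from 19.5 to 10.7 CPM and in fast cells from 6.09 to 0.812 CPM (difference 2.04 ± 0.17 SE). Lysosome and autophagy genes had 13 of 30 lower and 2 higher, with the protease genes CTSS (12 to 7.67 CPM) and CTSD (345 to 275 CPM) among the lower.

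Genes of ribosome production and respiration rose in small steps. Cytosolic ribosomal proteins led, with 63 of 77 genes up and 0 down at a median log2 fold change of 0.19. RPL32 stood at 458, 469 and 472 CPM in batch 1 and 652, 655 and 613 CPM in batch 2 (log2 fold change 0.46 ± 0.03 SE, edgeR adjusted p = 1.73e-15) and RPL34 rose from 214 to 289 CPM. Of 27 ribosome biogenesis and MYC target genes, 19 were higher and 0 lower, among them DKC1, the pseudouridine synthase (239 to 301 CPM), and NOP16 (88.9 to 109.5 CPM). The host transcripts of small nucleolar RNAs rose too, 11 of 16 higher and 1 lower, with SNHG1 at 141, 145 and 140.4 CPM in batch 1 and 206, 202 and 199 CPM in batch 2 (log2 fold change 0.51 ± 0.03 SE) and GAS5 from 155 to 206 CPM. Among respiratory chain subunits encoded in the nucleus, 40 of 70 were higher and 1 lower, with NDUFA3 from 21.4 to 28.4 CPM and COX6C, a cytochrome oxidase subunit, from 84.9 to 104 CPM.

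The length and GC trend was fitted to annotated genes of all types at a mean of at least 1 CPM, processed pseudogenes included. Its removal moved these lists to different degrees. After it, ribosomal proteins had 53 higher and 1 lower of 76, ribosome biogenesis 21 higher and 0 lower of 26, and small nucleolar RNA hosts 10 higher and 1 lower of 16. The respiratory chain dropped to 26 higher and 6 lower of 70. Leaving out 1 parental library at a time gave 26 to 38 respiratory genes higher, with 26 higher and 1 lower without parental batch 2 replicate 2. In fast cells 49 ribosomal protein genes were higher and 0 lower, and 36 respiratory chain genes were higher and 1 lower. None of the 13 mitochondrially encoded protein genes passed the test in parental cells (edgeR's quasi-likelihood test, median log2 fold change 0.05).

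**Figure D4:**
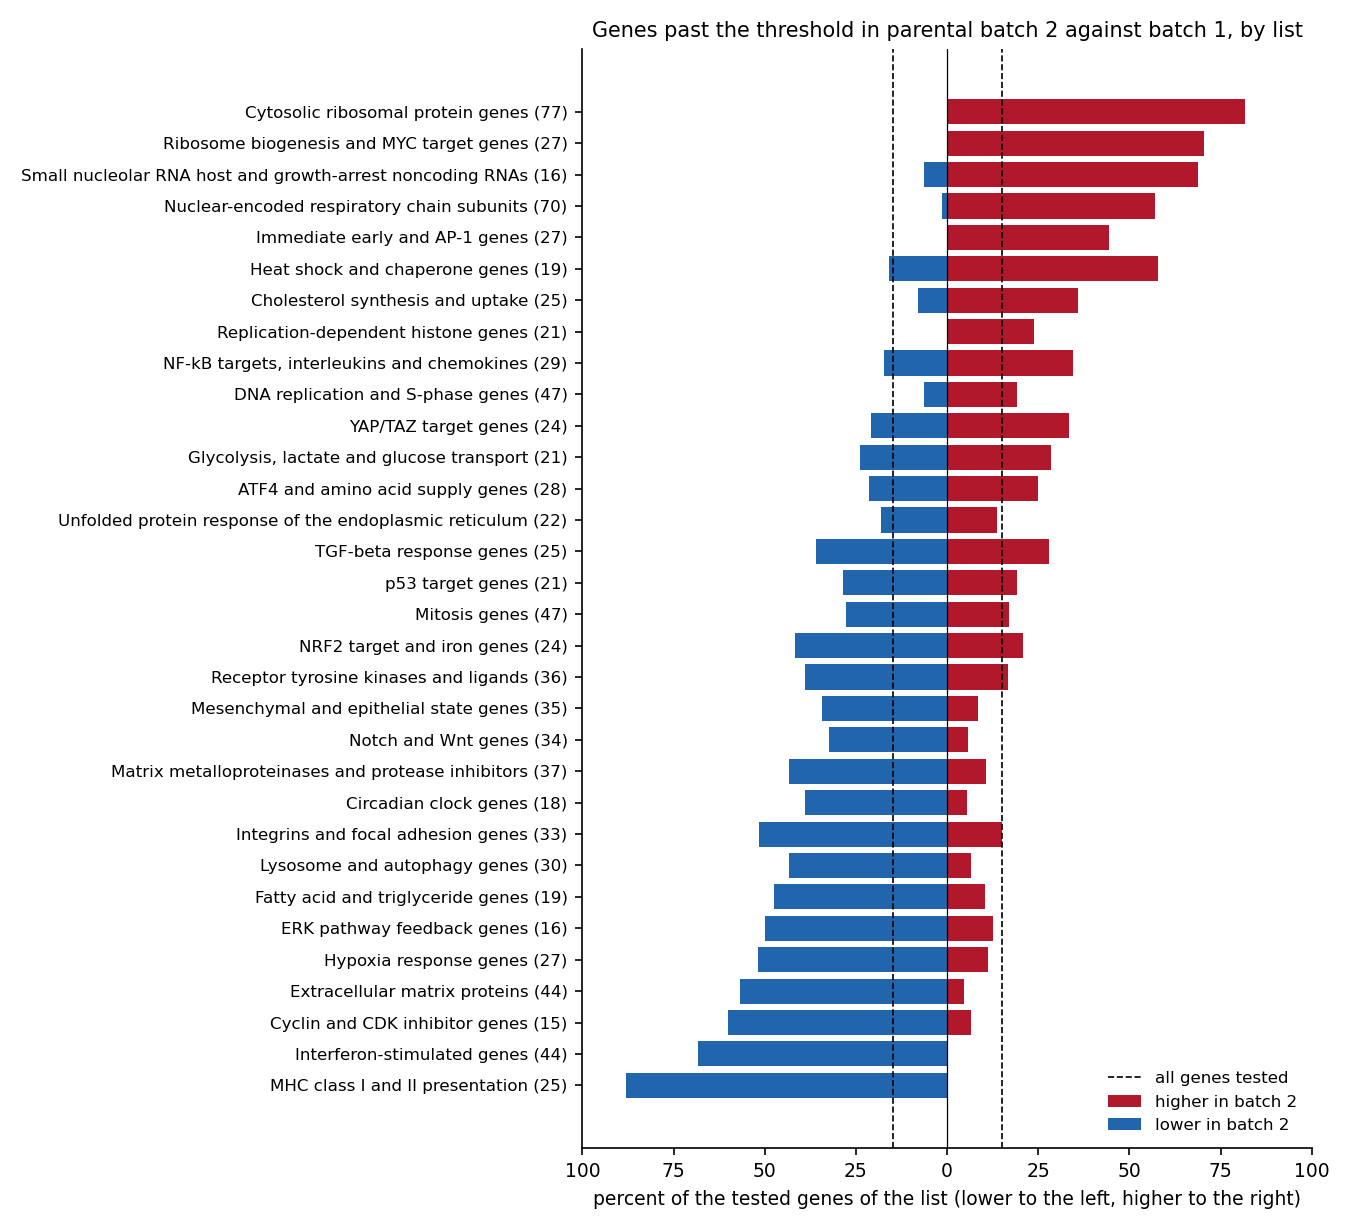
Percent of the tested genes that were higher (red, to the right) or lower (blue, to the left) in parental batch 2 than in batch 1 at an adjusted p under 0.05, for most of the lists with at least 15 tested genes, with the number tested in brackets. Dashed lines mark the 15.2% and 14.8% over all genes tested. Lists at the bottom, led by MHC presentation with 22 of 25 lower, fell, and lists at the top, led by ribosomal proteins with 63 of 77 higher, rose.

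Other lists had smaller or mixed counts. YAP/TAZ targets had 8 of 24 higher and 5 lower, with ANKRD1, a muscle-type ankyrin repeat protein, from 173 to 246 CPM, and 13 higher and 3 lower with the trend removed. Heat shock and chaperone genes had 11 of 19 higher and 3 lower, ATF4 and amino acid genes 7 of 28 higher and 6 lower, and unfolded protein response genes 3 of 22 higher and 4 lower. Targets of p53 had 4 of 21 higher and 6 lower, and glucocorticoid response genes 2 of 12 higher and 2 lower. Receptor tyrosine kinases and ligands had 6 of 36 higher and 14 lower, Notch and Wnt genes 2 of 34 higher and 11 lower, and circadian clock genes 1 of 18 higher and 7 lower, against 15.8% higher and 23.0% lower among protein-coding genes at 1 CPM or more. With the trend removed the receptor tyrosine kinase list had 10 higher and 11 lower and its median log2 fold change turned from -0.05 to 0.02, and without parental batch 2 replicate 3 it had 3 higher. The circadian list had 4 lower without parental batch 1 replicate 1, and the unfolded protein response list had 7 lower without parental batch 2 replicate 3. Mesenchymal and epithelial state genes had 3 of 35 higher and 12 lower. Replication-dependent histone genes had 5 of 21 higher and 0 lower, 3 higher without parental batch 1 replicate 1 or without batch 1 replicate 3, and 0 higher of 13 with the trend removed.

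Proliferation lists were mixed. Of 47 DNA replication genes, 9 were higher and 3 lower, and of 47 mitosis genes, 8 were higher and 13 lower, or 19.1% and 6.38%, and 17.0% and 27.7%, against 15.8% and 23.0% of protein-coding genes at 1 CPM or more. Fast cells had 13 higher and 0 lower replication genes and 13 higher and 4 lower mitosis genes. Without parental batch 2 replicate 3 the parental counts were 5 lower replication genes and 5 higher mitosis genes. UNG, a DNA repair glycosylase, rose from 131 to 158 CPM. ANLN, an actin-binding protein of the cleavage furrow, fell from 557 to 470.0 CPM, while CDC20, an activator of the anaphase-promoting complex, rose from 400.4 to 472 CPM. The cyclin and CDK inhibitor list had 9 of 15 lower and 1 higher, with CDKN2C (72.2 to 57.7 CPM) and CDKN1B (32.9 to 26.3 CPM) among the lower. FLNC, a filamin that cross-links actin, stood at 335, 332 and 341 CPM in batch 1 and 506, 530.1 and 536 CPM in batch 2 (log2 fold change 0.64 ± 0.03 SE), and it did not pass the test in fast cells (log2 fold change 0.00, difference 0.64 ± 0.04 SE). The mesenchymal adhesion gene CDH11 fell from 3.35 to 0.904 CPM, and VIM itself stood at 4978 to 5122 CPM (edgeR adjusted p = 0.281). Of the 8 tested mesenchymal markers of the line, VIM included, 4 were lower and 0 higher. FN1 and CD44 were among the lower, and CD44 lost its call with the length and GC trend removed.

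Most of the largest rises were in copies of other transcripts. Of the 12 largest rises at 5 CPM or more, 7 were processed pseudogenes, copies of spliced messages pasted back into the genome, 2 were mitochondrial transfer RNA genes (MT-TF and MT-TV), and 2 were genes annotated as protein-coding that copy other transcripts: PABPC3, an intronless relative of PABPC1, and MTRNR2L12, a nuclear copy of the mitochondrial 16S ribosomal RNA gene. SERINC2, a serine incorporator family membrane protein, was the last of them, at 6.56, 6.74 and 6.35 CPM in batch 1 and 15, 15.9 and 15.3 CPM in batch 2 (log2 fold change 1.23 ± 0.06 SE, edgeR adjusted p = 1.83e-19), and it rose as much in fast cells, at 21, 20.7 and 19.6 CPM in batch 1 and 51.3, 51.5 and 51.4 CPM in batch 2 (difference -0.10 ± 0.08 SE). Further protein-coding rises, chosen after their values were seen, were in EDARADD, a death-domain adaptor of ectodysplasin signalling (3.57 to 6.9 CPM), the hair keratin-associated gene KRTAP2-3 (26 to 45.7 CPM) and FGF1 (8.26 to 14 CPM).

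Processed pseudogenes rose as a class. Of 2148 tested, 931 were higher and 24 lower, with a median log2 fold change of 0.79, and they made up 552 of the 721 genes that were at least 2-fold higher. Their share of all counts was 0.593%, 0.561% and 0.597% in the parental batch 1 libraries and 0.743%, 0.751% and 0.752% in batch 2. GAPDHP1, a copy of the glycolytic gene GAPDH, stood at 9.7, 8.33 and 8.86 CPM in batch 1 and 20.2, 21.6 and 20.5 CPM in batch 2 (log2 fold change 1.22 ± 0.07 SE, edgeR adjusted p = 2.61e-18), while GAPDH itself went from 2578 to 3054 CPM (0.24 on the log2 scale). PFN1P1, a copy of profilin 1, stood at 6.61, 5.64 and 7.73 CPM in batch 1 and 15.7, 13.9 and 16 CPM in batch 2 (log2 fold change 1.19 ± 0.09 SE), and PFN1 went from 1346 to 1610.0 CPM (0.26). EEF1A1P8 rose from 2.76 to 7.75 CPM while its source, the elongation factor gene EEF1A1, stood at a log2 fold change of -0.07 (edgeR adjusted p = 0.0492), a call lost in several alternatives. The rise was shared with the fast cells, where 832 pseudogenes were higher and 25 lower with a median of 0.69, and the difference of the batch effect was called for 10 of the 2148.

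The pseudogene and its source are printed for the first pair and the second because so few letters separate them, and a count depends on which copy a read is given to. The sequences are stretches of 120 bases from GENCODE 29 transcripts (GRCh38), the source gene counted from the first coding base. Capitals mark the positions that differ. In GAPDHP1, coding bases 1 to 120, the changes are G28A, T41C and C120G, with GAPDH's base first and positions counted from 1 at the start of the stretch, and over 1005 aligned coding bases the copies are 96.2% identical. In PFN1P1, coding bases 14 to 133, there are 8 changes in 120, and 96.2% of 420 aligned bases are identical.
GAPDH: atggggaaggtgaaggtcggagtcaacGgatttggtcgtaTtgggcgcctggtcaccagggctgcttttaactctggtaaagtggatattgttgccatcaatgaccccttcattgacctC
GAPDHP1: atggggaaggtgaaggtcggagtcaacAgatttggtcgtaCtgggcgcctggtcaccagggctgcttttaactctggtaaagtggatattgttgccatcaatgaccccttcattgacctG
PFN1: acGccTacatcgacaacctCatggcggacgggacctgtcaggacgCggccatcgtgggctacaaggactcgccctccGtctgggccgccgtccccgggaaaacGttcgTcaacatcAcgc
PFN1P1: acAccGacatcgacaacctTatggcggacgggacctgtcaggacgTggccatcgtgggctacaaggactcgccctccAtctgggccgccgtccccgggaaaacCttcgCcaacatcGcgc

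How far a pseudogene rose varied with how much of it is identical to its source. Among 462 pseudogenes at 1 CPM or more whose name points to a tested gene (253 genes), the pseudogene had a median log2 fold change of 0.76 and the gene named 0.07. The 237 that shared some but at most 25% of their 50-base windows with the gene had a median of 0.98, and 205 of them were higher. The 107 that shared over 25% to 50% had a median of 0.72, and the 99 that shared more had 0.26, with 51 higher and 8 lower. The 19 that shared no window had 0.07. The bins were chosen with the values in view and are a description of these libraries. The labels and the table do not state how reads with several matches were counted, and the part of that in the rise was not tested.

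Small nucleolar RNAs also rose. Of 162 tested small nucleolar RNA genes, 58 were higher and 0 lower, with a median log2 fold change of 0.57. In other classes of small RNA, 5 of 45 small nuclear RNA genes were higher and 0 lower, 3 of 68 microRNA genes higher and 2 lower, and 0 of 47 miscellaneous RNA genes higher and 4 lower. TERC, the RNA of telomerase, stood at 0.474, 0.31 and 0.031 CPM in batch 1 and 1.72, 1.74 and 1.43 CPM in batch 2 (log2 fold change 2.61 ± 0.63 SE, edgeR adjusted p = 0.0136), and RNU12, a spliceosomal RNA, at 0.14, 0.124 and 0.0466 CPM in batch 1 and 0.809, 0.649 and 0.336 CPM in batch 2. The mitochondrial 12S and 16S ribosomal RNAs, MT-RNR1 and MT-RNR2, stood at 276, 432 and 260.4 CPM in batch 1 and 501, 538 and 564 CPM in batch 2 and at 1998, 2557 and 1661 CPM in batch 1 and 3092, 3445 and 3230.2 CPM in batch 2. MT-TF, the mitochondrial transfer RNA for phenylalanine, stood at 2.37, 7.52 and 2.96 CPM in batch 1 and 14.4, 16 and 16.9 CPM in batch 2 (log2 fold change 1.87 ± 0.37 SE). In each of these 3 mitochondrial RNAs parental batch 1 replicate 2 was the highest of its batch and nearest to batch 2. In a fit of the 6 parental libraries alone MT-RNR1, MT-RNR2, MT-TV and NEAT1 lost their calls, NEAT1 also without parental batch 1 replicate 2, batch 2 replicate 1 or batch 2 replicate 2, and MT-RNR1 without batch 1 replicate 1 or batch 2 replicate 3. The nuclear-retained NEAT1 fell (66, 92.2 and 77.9 CPM in batch 1 and 49, 47.3 and 59.1 CPM in batch 2) and MALAT1 overlapped between the batches (edgeR adjusted p = 0.787).

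A trend with transcript length ran through the protein-coding genes. Split into deciles by the longest transcript, the shortest decile (177 to 1593 bases, 1247 genes) had 339 genes higher and 120 lower, and the longest (over 7660 bases, 1246 genes) had 67 higher and 562 lower. The median log2 fold change went from 0.05 to -0.13 between them. Across these 12461 genes the Spearman correlation with length was -0.29 in parental and -0.29 in fast cells, and with GC content 0.21 and 0.15, as descriptions. Longer genes had lower GC content (median 43.1% in the longest decile and 53.7% in the shortest). The separate parts of length and GC content were not tested. The trend that was removed in the alternative fit is another one. It was fitted on length and GC content together, to annotated genes of all types at a mean of at least 1 CPM, processed pseudogenes included. In all, 4925 of 6628 calls that could be retested kept their direction and call after that removal.

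**Figure D5:**
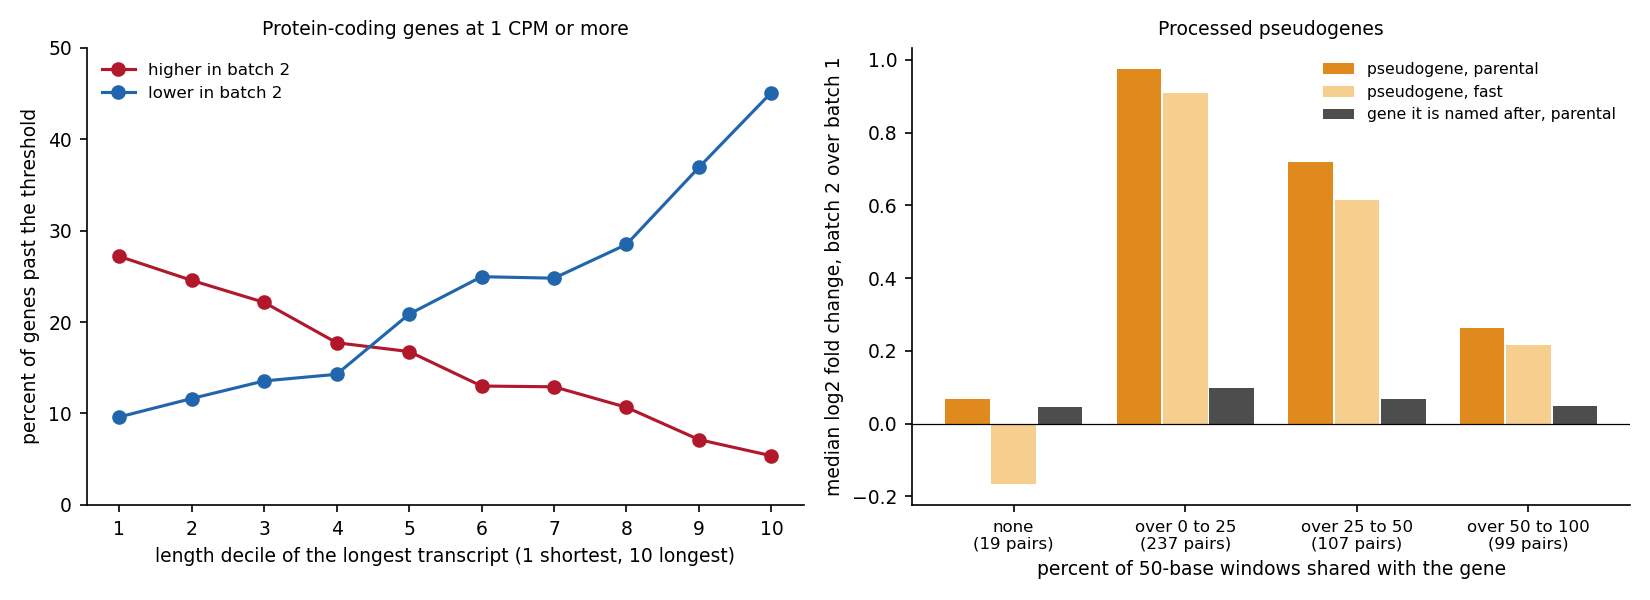
Left, percent of 12461 protein-coding genes at 1 CPM or more that were higher (red) or lower (blue) in parental batch 2, by decile of transcript length (x axis, 1 shortest, 10 longest). Right, median log2 fold change of 462 processed pseudogenes in parental (orange) and fast (light orange) cells and of the genes they are named after (grey, parental), by the percent of 50-base windows shared; the share higher drops from 27.2% to 5.38% from left to right, and the pseudogene medians are largest, 0.98 in parental cells, where few windows are shared.

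Among genes at 5 CPM or more, those with clone names left out, the largest called differences of the batch effect fell in a few families. On the side where the parental batch effect was the more negative stood HLA-DRA, HLA-DRB1, HLA-DRB6 and HLA-DRB5. On the other side stood PTGS2, IL24, WTAPP1 and MMP1, where the fast cells fell steeply and the parental cells fell less or, for IL24, rose.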

How the data were processed

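RNA was sequenced from 12 libraries of MDA-MB-231, 3 for each of 2 populations in each of 2 batches. The deposited table holds raw counts per Ensembl gene, made by the authors with Trimmomatic 0.32, STAR 2.3.0e and featureCounts 1.4.4 on hg19/GRCh37, per the submitters' processing notes. No source used here gives strand use or the treatment of reads with several matches. From these counts, edgeR 4.0.16 (R 4.3.3) was fitted to all 12 libraries with TMM scaling, a filter on low counts (minimum 10, total 15), robust quasi-likelihood tests and Benjamini-Hochberg adjustment over all genes tested, with calls under 0.05. Contrasts were batch 2 minus batch 1 in parental cells, in fast cells, and their difference. The fit was tested on counts simulated from its own estimates of spread. For the parental contrast it called 72%, 91% and 96% of genes changed 1.25-fold, 1.5-fold and 2-fold. It called 3 of 21952 unchanged genes. Such counts hold no reads with several matches and no spread between cultures, so the simulation does not bear on either. Gene types, lengths and GC content came from GENCODE 29 (GRCh38, another build, matched by gene ID for 95.1% of genes tested), promoters from RefSeq (GRCh38.p14). Genes are named by rule: the 12 largest rises and falls at 5 CPM or more whose libraries do not overlap, up to 3 called members of each list at 1 CPM or more, the 4 largest called differences of the batch effect on each side, and line markers. The rankings of rises, falls and differences left out genes whose symbol is a clone name. Other names, such as further class I and II, ID and collagen genes and the sources of pseudogenes, were picked with their values in view. The comparison and the gene lists were chosen with earlier results of these data known. Replicate numbers did not pair the parental libraries. Alternatives were DESeq2 1.42.0, limma-voom (limma 3.58.1), other scalings and filters, fewer libraries, a replicate block and, chosen after seeing the data, removal of a length and GC trend and a fit of protein-coding genes only. A few genes and 1 list are not reported here.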

Additional observations from a re-analysis of the deposited data

Results flagged for a closer look

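Of 117 genes named above, 48 differed in their batch effect between parental and fast cells by edgeR's quasi-likelihood test of the difference at an adjusted p under 0.05, 23 more negative and 25 more positive in parental cells. The log2 differences, parental minus fast, were HLA-DRA -1.85, HLA-DRB1 -1.72, HLA-DRB6 -1.54, HLA-DRB5 -1.52, HLA-DPA1 -1.41, HLA-DPB1 -1.13, HLA-DMB -1.09 and PMEPA1 -0.98. Further negative differences were CD74 -0.92, COL6A3 -0.76, CIITA -0.66, ADAMTS15 -0.55, FN1 -0.55, LAMA3 -0.54, SREBF1 -0.54 and VEGFA -0.50. Smaller negative differences were CD96 -0.42, HLA-DMA -0.40, COL18A1 -0.34, ETV1 -0.33, CDKN2C -0.32, SPRY1 -0.32 and COL6A1 -0.20. The positive differences were led by PTGS2 2.36, IL24 2.21, WTAPP1 2.17, MMP1 2.12, AKR1C1 2.04, FOS 1.96, EGR1 1.88 and FOSB 1.84. They were followed by ATF3 1.62, ID4 1.59, ID2 1.59, CST1 1.29, CST4 1.27, ID3 1.06, ADM 0.79 and ID1 0.77. Below these stood FLNC 0.64, FGF1 0.47, TNC 0.38, ISG15 0.34, SLC3A2 0.34, TAP1 0.27, EEF1A1 0.21 and THBS1 0.18. The smallest positive one was RPL32 0.16.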

How the results depend on the processing

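Of 170 recomputed counts of called genes, 142 stayed within 1.5 times the reported count and 28 moved further. For parental batch 2 against batch 1, the genes at least 2-fold higher (721) numbered 250 when genes under a mean of 1 CPM were left out, 451 with the length and GC trend removed and 43 among protein-coding genes only, and those at least 2-fold lower (153) numbered 57 with the 1 CPM filter. Leaving out 1 library at a time gave 2620 to 3107 higher, 2802 to 4017 lower, 589 to 710 at least 2-fold higher and 135 to 218 at least 2-fold lower. For the fast contrast, 2258 were lower among protein-coding genes only, 247, 410 and 42 were at least 2-fold higher with the 1 CPM filter, with the trend removed and in protein-coding genes, and 79 and 142 were at least 2-fold lower with the 1 CPM filter and in protein-coding genes. Leaving out 1 library gave 1974 to 2726 higher, 2282 to 2954 lower, 525 to 599 at least 2-fold higher and 196 to 223 at least 2-fold lower. The difference of the batch effect, 827 genes more positive in parental cells, gave 522 with DESeq2's size factors in edgeR, 527 with upper-quartile scaling and 411 without a filter. The 396 genes more negative became 612 with upper-quartile scaling, 966 without a filter, 740 with the 1 CPM filter, 800 with DESeq2, 626 with the trend removed and 621 among protein-coding genes. Without 1 library these ranged from 337 to 807 and from 299 to 819. Apart from the tests of fewer genes or libraries, the cause was not tested. No named gene that passed the test in parental cells changed sign under the alternatives run, but EEF1A1, FOS, ID2, CD44, NEAT1, NLRC5, TGM2, MT-RNR1, MT-RNR2 and MT-TV lost their calls under at least 1 of them. A replicate block gave 3329 higher and 3234 lower in parental cells; same-numbered parental libraries had correlated deviations of -0.116, -0.112 and -0.106, so the numbers do not pair them, and the same is true of fast cells (0.042, -0.0243 and 0.0472). Below about 1 CPM few counts stand behind a gene, and its fold is imprecise.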

Other observations

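In every library even counts outnumbered odd ones. Among genes with 10 to 99 counts, 60.7% to 62.9% of values were even in the parental batch 1 libraries and 64.1% to 64.7% in batch 2. Among genes with 1 to 9 counts, the shares were 62.4% to 65.8% and 68.5% to 70.0%.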
